A study of Homo sapiens with 4 samples.

Results

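Antisense long noncoding RNAs are transcribed from the strand opposite a protein-coding gene, and by convention carry that gene's symbol followed by AS1. Of the 60683 genes in the deposited tables, 1646 bear such a name, and 1 of them is left out by the selection rule. The 264 described here had an expected count of at least 10 in both libraries of 1 group, and each was set beside the sense gene it is named after. Of these, 196 met the minimum in both groups, 42 in the FOXD2 group alone and 26 in the empty vector group alone. They were selected on the same counts that are compared below. Entry through 1 group alone therefore favours higher counts in that group, and the change of such a member is a description only.

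An antisense RNA can arise from a promoter it shares with its neighbour, read across the 3′ end of the sense gene, or lie inside an intron. Some are known to act on the neighbouring gene or to bind proteins and microRNAs elsewhere in the cell, and many have no known function. Many are unstable nuclear transcripts: the nuclear RNA exosome degrades them, and the Integrator and cleavage complexes end their transcription early.

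The data were 4 RNA sequencing libraries of HCT116, an established human colorectal carcinoma line. FOXD2 cells (2 libraries) carried a pSin lentivirus with the FOXD2 coding sequence, and empty vector cells (2 libraries) carried pSin without an insert. FOXD2 is a forkhead transcription factor. Both groups had been selected in puromycin at 5 µg/ml, and their mRNA was isolated before strand-specific libraries were made. Whether replicates came from independent cultures is not in the labels, so the p-values below reflect how far these libraries differ, which may be a technical spread.

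Library totals lay between 14231338 and 15535817 counts. FOXD2 had 8195 and 7011 counts in FOXD2 libraries and 49 and 42 in empty vector libraries, with the delivered sequence and the cells' own gene counted together. The epithelial markers EPCAM, KRT8, KRT18, KRT19 and CDH1 each had at least 1177 counts in all 4 libraries. Of 10 epithelial and colonic markers, 7 were tested, of which 6 were higher in FOXD2 libraries and CDX2 was lower. EPCAM changed by 0.15 on the log2 scale, KRT8 by 0.85, KRT18 by 0.87, KRT19 by 1.04, CDH1 by 1.09 and CLDN4 by 1.98. CDX2, a colonic transcription factor, had 177 and 196 counts in FOXD2 libraries and 227 and 286 in empty vector libraries (-0.51). CDX1 was at 0, and the intestinal genes VIL1 and LGR5 had at most 6 counts. Of 7 fibroblast markers, COL1A2, DCN and LUM were at 0 in all 4 libraries, but the list summed to 41.5 and 41.0 CPM (counts relative to library size) in FOXD2 libraries and 13.3 and 15.3 CPM in empty vector libraries. COL1A1 (1.68 on the log2 scale) and ACTA2 (1.10) were called higher. Of 8 blood and endothelium markers, PTPRC, HBB and CD3E were at 0, and the list summed to 46.3 and 37.8 CPM in FOXD2 libraries and 6.15 and 6.89 CPM in empty vector libraries. In that list CD68 (2.98) and HBA2, with 18 and 23 counts in FOXD2 libraries and 0 in both empty vector libraries, were called higher. HBA1 went the other way and was not called (-0.57), with 20.5 and 0 counts in FOXD2 libraries and 13 and 17 in empty vector libraries. VWF was not called either (0.93). Packaging cell markers, 4 of 7 at 0, summed to 98.4 and 88.4 CPM in FOXD2 libraries and 69.4 and 71.9 CPM in empty vector libraries. The genes of this list divided, with VGF (1.16) and PAX2 (0.42) called higher and ZIC2 (-0.57) called lower. VGF alone had 62.9 and 53.6 CPM in FOXD2 libraries and 26.2 and 26.0 CPM in empty vector libraries. The part of these markers in the results was not tested. Summed RNAs without a polyA tail reached 132.7 and 58.4 CPM in FOXD2 libraries 1 and 2, against 30.3 and 28.8 CPM in empty vector libraries 1 and 2. Both FOXD2 libraries thus lay above both empty vector libraries in that measure. Among the 5 of these RNAs tested, RN7SL2 was called higher (1.34) and 4 were not called. The part of this group difference in the results was not tested. FOXD2 library 1 stood furthest apart, and its part was not tested either. Fewer antisense RNAs were called without that library, but this was also so without each of the other libraries. Each such fit has 1 library left in a group, so the drop cannot be told from a loss of replicates.

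The strand of the counting is not given in the sources used here, so the tables were asked whether reads of overlapping genes had been kept apart. RSEM, the program that made the counts, gives each count a posterior SD, which is 0 where every read was assigned to 1 gene. Among genes that share at least 200 exonic bases with a gene on the opposite strand, with at least 100 counts each, 841 of 1061 (79.3%) had an SD of 0 in all 4 libraries. Among genes that share as much with a gene on the same strand, it was 4 of 247 (1.62%). Of the antisense RNAs themselves, 238 of 264 had an SD of 0 throughout. These included 77 of the 87 with at least 200 shared exonic bases and a sense gene of at least 100 counts.

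The promoters of 3 antisense RNAs are shown because their RNAs stand for 3 patterns described below: few counts in empty vector libraries beside a sense gene that rose (PITX1-AS1), a fall of both genes (NR2F1-AS1), and the antisense neighbour of FOXD2 itself (FOXD2-AS1). Each runs from 250 bases before to 50 bases after the RefSeq start (GRCh38.p14), 5′ to 3′ on the strand of the antisense RNA. PITX1-AS1 lies at chr5:135033024-135033323 on the plus strand, NR2F1-AS1 at chr5:93585540-93585839 on the minus strand and FOXD2-AS1 at chr1:47434592-47434891 on the minus strand. Capitals mark the forkhead core TGTTTA, searched on both strands as TGTTTA and TAAACA.
PITX1-AS1: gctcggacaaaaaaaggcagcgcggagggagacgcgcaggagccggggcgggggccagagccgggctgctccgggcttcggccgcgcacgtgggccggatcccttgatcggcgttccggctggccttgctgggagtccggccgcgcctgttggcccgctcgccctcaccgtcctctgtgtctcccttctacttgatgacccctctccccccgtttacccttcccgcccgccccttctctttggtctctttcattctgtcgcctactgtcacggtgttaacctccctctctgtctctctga
NR2F1-AS1: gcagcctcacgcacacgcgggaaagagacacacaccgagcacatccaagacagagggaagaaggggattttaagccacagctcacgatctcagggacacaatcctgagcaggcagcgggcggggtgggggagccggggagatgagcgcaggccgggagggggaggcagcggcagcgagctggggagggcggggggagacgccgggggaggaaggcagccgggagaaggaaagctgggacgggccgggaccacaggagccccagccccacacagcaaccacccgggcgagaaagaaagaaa
FOXD2-AS1: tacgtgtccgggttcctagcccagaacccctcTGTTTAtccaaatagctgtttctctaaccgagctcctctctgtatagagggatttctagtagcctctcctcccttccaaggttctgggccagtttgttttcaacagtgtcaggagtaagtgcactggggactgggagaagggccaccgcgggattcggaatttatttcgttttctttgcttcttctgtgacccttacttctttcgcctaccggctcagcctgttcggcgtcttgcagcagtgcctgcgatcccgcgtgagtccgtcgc
The window of FOXD2-AS1 held 1 match and those of PITX1-AS1 and NR2F1-AS1 held 0.

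RefSeq held a promoter for 209 of the 264 antisense RNAs. Of these, 15 (7.18%) contained TGTTTA or its complement, against 12.32% of all 35116 promoters in the table. The longer motif TGTTTAC, or GTAAACA on the other strand, contains the shorter one. It was in 5 of 209 (2.39%), against 3.42% of all promoters. The longer motif was in 0 of 43 promoters of RNAs called higher and in 2 of 18 of RNAs called lower. For TGTTTA the counts were 4 of 43 and 3 of 18. The antisense promoters had a median GC content of 67.0%, against 58.7% over all promoters.

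The antisense RNAs were scarce. Their mean TPM (a level relative to gene length and depth) ran from 0.273 to 44.8 with a median of 2.16, and 60 lay below 1 TPM. The sense genes had a median of 11.0 TPM. In 74 of 264 pairs the antisense RNA had the higher mean TPM, but 32 of the 264 sense genes had under 10 counts in every library. Where both genes passed the filter on low counts, the sense gene had the higher mean TPM in 188 of 225 pairs. VPS9D1-AS1 led with 51.0 and 48.0 TPM in FOXD2 libraries and 38.9 and 41.1 TPM in empty vector libraries. Next came THAP9-AS1, ELFN1-AS1, FGD5-AS1, EPB41L4A-AS1 and MAPKAPK5-AS1. Summed over all 264, the antisense RNAs took 1416 and 1482 CPM in FOXD2 libraries and 1340 and 1385 CPM in empty vector libraries. At the threshold of the selection, 23 members had between 10 and 12 counts in the lower library of their better group, and 31 genes just outside had between 8 and 10.

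By position in GENCODE release 29 (GRCh38), 117 overlapped the 5′ end of the sense gene, 59 its 3′ end, 37 lay inside it, 32 spanned it, 17 started apart from it head to head and 2 lay tail to tail. Exonic bases were shared in 203 pairs, and 60 pairs had their starts within 500 bases of each other. Distances between starts given below are from this release unless RefSeq is named.

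FOXD2 libraries had more antisense RNAs called higher than lower. Among the 262 that passed the filter on low counts, 56 were higher and 24 were lower at an edgeR adjusted p under 0.05. Over all 14470 genes tested, 27.2% were higher and 26.4% were lower. In this fit the share of antisense RNAs was below that background in both directions, and further below it for falls. Their median log2 fold change was 0.19, against 0.01 over all genes, and their median level was 1.16 on the log2 CPM scale, against 4.67. Among the 196 that met the minimum in both groups, 40 were higher and 15 lower, with a median of 0.17. Of the 41 tested that met it in the FOXD2 group alone, 16 were higher and 0 lower. Of the 25 that met it in the empty vector group alone, 0 were higher and 9 lower. In these single-group classes the selection favours the direction without fixing it. Fitted log2 changes went as low as -0.11 in the first class and as high as 0.13 in the second. DESeq2 called 27 higher and 9 lower among all members, against 2707 and 2916 over all genes. With limma on TPM, 43 members were higher and 17 lower, against 2369 and 1482 over all genes. The share of rises was then close to that over all genes.

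Other noncoding genes of the annotation, 843 in number, had 219 higher (26.0%) and 57 lower (6.76%), with a median log2 fold change of 0.31. Protein-coding genes had 3515 higher and 3679 lower of 12698. The sense partners had 60 higher and 64 lower of 227, with a median of 0.00. Divergent transcripts, whose names end in DT, had 21 higher and 7 lower of 122, and genes ending in AS2 had 3 higher and 1 lower of 16.

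Of the 80 antisense RNAs called, 29 kept their call under every alternative setting that tested them, 22 higher and 7 lower. Of these, DLG1-AS1 did not pass the filter of 1 CPM in 2 libraries or the filter without FOXD2 library 1, and so was not tested there. Among the 55 called RNAs that met the minimum in both groups, 19 kept their call, 13 higher and 6 lower. The remaining RNAs of the 29 entered through 1 group alone, which favours the direction they show.

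**Figure D1:**
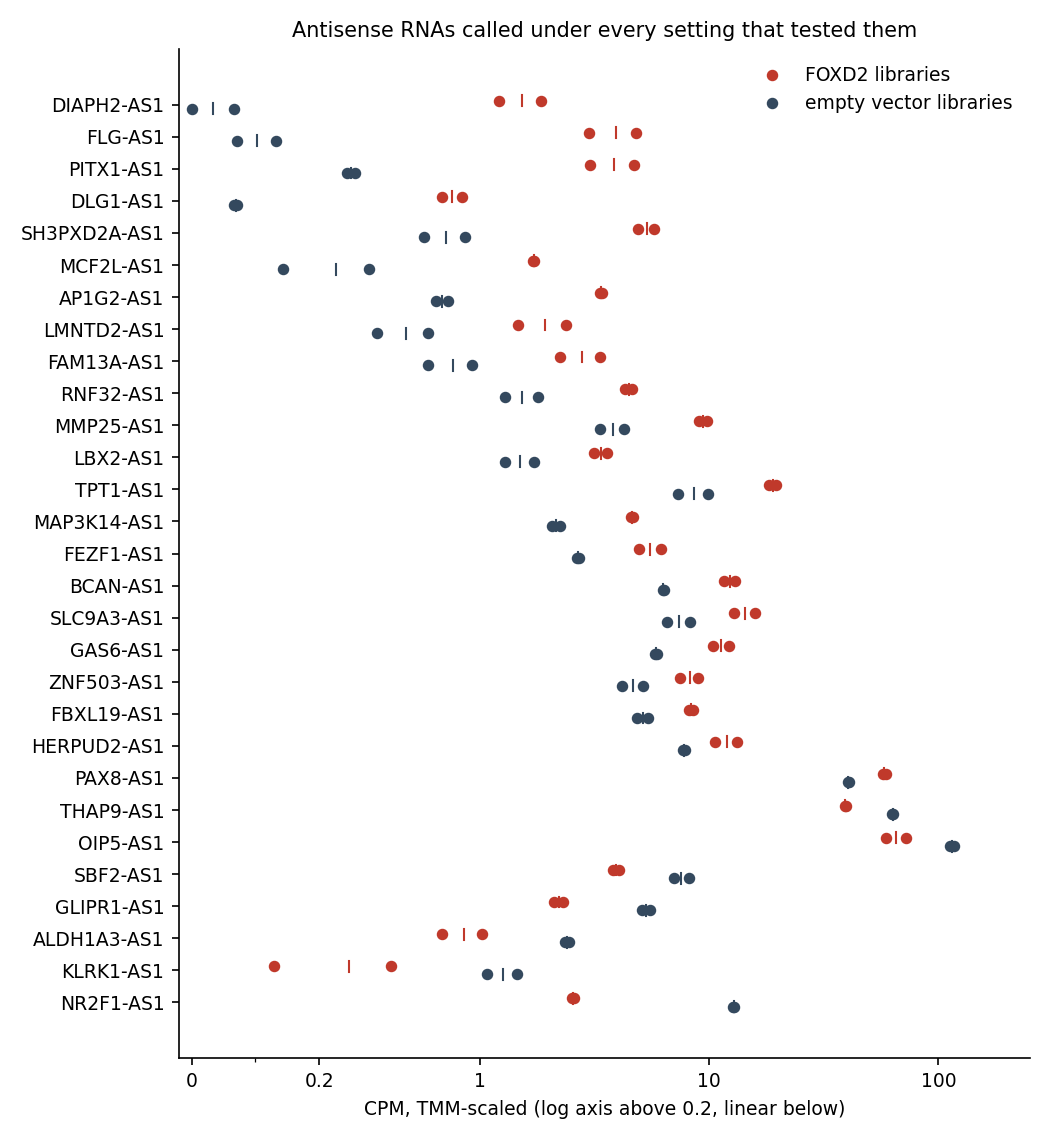
CPM of the 29 antisense RNAs that kept their call under every setting that tested them (log axis above 0.2 CPM, linear below), with FOXD2 libraries in red above empty vector libraries in dark blue; points are libraries and bars are means of 2. The 22 at the top were higher in FOXD2 libraries and the 7 at the bottom were lower, of which 13 and 6 met the minimum in both groups, and the separation of groups follows from the choice of these RNAs.

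The rule named 6 RNAs that met the minimum in FOXD2 libraries alone. The selection favours higher counts there, so they are described without a test. PITX1-AS1 (ENSG00000224186, chr5:135033280-135358219, plus strand) overlaps the 5′ end of PITX1, a homeodomain transcription factor of hindlimb and pituitary development. It had 47 and 69 counts in FOXD2 libraries and 4 and 4 in empty vector libraries, or 3.87 ± 1.2 and 0.276 ± 0.0149 CPM (SD, n = 2 each). The fitted log2 change was 3.77. PITX1 had 801 and 669 counts in FOXD2 libraries and 395 and 443 in empty vector libraries (log2 change 0.75, SE 0.09, edgeR adjusted p = 4.1e-10). The sense gene, which the selection did not use, was thus higher in both FOXD2 libraries.

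FLG-AS1 (ENSG00000237975, chr1:152168125-152445456, plus strand) spans FLG, which encodes filaggrin, a protein that bundles keratin filaments in the skin. FLG-AS1 had 75 and 44 counts in FOXD2 libraries and 1 and 2 in empty vector libraries. The count ratio was 38.2, given without an interval because the selection used these counts. FLG, which the selection did not use, had 23 and 22 counts in FOXD2 libraries and 2 and 1 in empty vector libraries. Its ratio was 14.4 (exact 95% interval 4.64 to 72.7, counting error only). Both strands thus had few counts in empty vector libraries.

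SH3PXD2A-AS1 (ENSG00000280693, chr10:103745966-103755423, plus strand) lies inside SH3PXD2A, a scaffold protein of invadopodia, and shares no exonic base with it. It had 90 and 72 counts in FOXD2 libraries and 8 and 13 in empty vector libraries (fitted log2 change 2.88). SH3PXD2A was lower, with 247 and 250 counts in FOXD2 libraries and 362 and 328 in empty vector libraries (log2 fold change -0.53, SE 0.12, edgeR adjusted p = 0.000135). That call was lost with limma on TPM (-0.38, limma adjusted p = 0.0691).

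AP1G2-AS1, opposite a subunit of the AP-1 clathrin adaptor, had 52 and 50 counts in FOXD2 libraries and 9 and 11 in empty vector libraries, with a fitted log2 change of 2.28, and AP1G2 rose by 1.07. LMNTD2-AS1 had 23 and 35 counts in FOXD2 libraries against 5 and 9, and its log2 fold change of 1.98 was close to that of LMNTD2, 1.96, a lamin-tail-domain gene. FAM13A-AS1 had 35 and 49 counts in FOXD2 libraries against 13 and 9 in empty vector libraries, a log2 fold change of 1.87. FAM13A was not called (0.04, edgeR adjusted p = 0.78). These pairs thus differed in whether the sense gene was called. DIAPH2-AS1, DLG1-AS1 and MCF2L-AS1 entered the same way and are named after their values were seen. DIAPH2-AS1 had 19 and 27 counts in FOXD2 libraries and 0 and 1 in empty vector libraries, DLG1-AS1 had 13 and 10 against 1 and 1, and MCF2L-AS1 had 27 and 25 against 2 and 5.

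Among RNAs that met the minimum in both groups, the 10 largest rises were between 1.02 and 1.53 on the log2 scale. RNF32-AS1 led with 72 and 63 counts in FOXD2 libraries and 18 and 27 in empty vector libraries (log2 fold change 1.53, SE 0.29, edgeR adjusted p = 1.4e-05), while RNF32, a ring finger gene, was not called (-0.40). MMP25-AS1, opposite a membrane-anchored matrix metalloproteinase, had 141 and 144 counts in FOXD2 libraries and 47 and 64 in empty vector libraries (1.31, SE 0.19). TPT1-AS1 starts 25 bases from TPT1, the gene of translationally controlled tumour protein, in GENCODE release 29, and 160 bases from it in RefSeq. It had 305 and 268 counts in FOXD2 libraries and 102 and 149 in empty vector libraries (1.14, SE 0.14, edgeR adjusted p = 1.5e-09). TPT1 itself had at least 23490 counts in every library and a log2 fold change of 0.05 (edgeR adjusted p = 0.44). FEZF1-AS1, an RNA studied in colorectal carcinoma, had 77 and 90 counts in FOXD2 libraries and 38 and 40 in empty vector libraries (1.04, SE 0.25). Its sense gene FEZF1, a zinc finger transcription factor of the forebrain, had 3 and 6 counts in FOXD2 libraries and 6 and 9 in empty vector libraries and was not tested.

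SOX9-AS1 rose together with SOX9, a transcription factor of intestinal crypts. SOX9-AS1 had 32 and 40 counts in FOXD2 libraries and 16 and 15 in empty vector libraries (log2 fold change 1.16, SE 0.37). SOX9 had 2828 and 2616 counts in FOXD2 libraries and 1445 and 1535 in empty vector libraries (0.81, SE 0.06). PRKAG2-AS1, which starts 83 bases from the gene of an AMP-activated kinase subunit, had a log2 fold change of 1.03, against 0.69 for PRKAG2. The remaining large rises were LBX2-AS1 (1.15), MAP3K14-AS1 (1.09), KCNMB2-AS1 (1.04) and ZNF337-AS1 (1.02), whose sense genes were not called or not tested. The call was lost without 1 library for 4 of the 10. SOX9-AS1 had an edgeR adjusted p of 0.0582 without empty vector library 2 and 0.109 without FOXD2 library 2. PRKAG2-AS1 had 0.104 without empty vector library 1 and 0.0974 without FOXD2 library 2. KCNMB2-AS1 had 0.23, 0.134 and 0.0513 without empty vector library 1, FOXD2 library 1 and FOXD2 library 2. ZNF337-AS1 lost its call without any one of the 4 libraries (0.0686 to 0.145). None of these 4 was called with DESeq2 or with limma on TPM.

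Several of the other RNAs in the plot of CPM by library are named after their values were seen. PAX8-AS1, opposite the 3′ end of a thyroid and kidney transcription factor gene, had 890 and 861 counts in FOXD2 libraries and 567 and 608 in empty vector libraries (0.52, SE 0.08). PAX8 had 104 and 84 counts in FOXD2 libraries and 88 and 96 in empty vector libraries and was not called. SLC9A3-AS1 had 201 and 233 counts in FOXD2 libraries and 92 and 125 in empty vector libraries (0.95, SE 0.16), while SLC9A3, the sodium-proton exchanger of the gut brush border, was at -0.05. These RNAs were thus higher in both FOXD2 libraries beside a sense gene with no called change. GAS6-AS1 had 162 and 178 counts in FOXD2 libraries and 81 and 90 in empty vector libraries (0.94), and GAS6, a ligand of the AXL receptor, was not called (-0.18). BCAN-AS1 had 202 and 170 counts in FOXD2 libraries and 89 and 95 in empty vector libraries (0.96), with BCAN, a brain proteoglycan, at 0 to 2 counts. HERPUD2-AS1 and ZNF503-AS1 rose by 0.61 and 0.82 together with their sense genes (0.36 and 0.41). The call of HERPUD2 was lost without empty vector library 1 (edgeR adjusted p 0.055) and with DESeq2 (DESeq2 adjusted p 0.0588).

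The falls were led by NR2F1-AS1 (ENSG00000237187, chr5:93409359-93585648, minus strand), which overlaps the 5′ end of NR2F1, an orphan nuclear receptor. It had 40 and 37 counts in FOXD2 libraries and 179 and 193 in empty vector libraries, or 2.55 ± 0.0293 and 12.8 ± 0.0128 CPM (SD, n = 2 each). NR2F1 had 198 and 184 counts in FOXD2 libraries and 934 and 939 in empty vector libraries. The fitted log2 changes were -2.32 (SE 0.19, edgeR adjusted p = 2.5e-15) for the antisense RNA and -2.35 (SE 0.10, edgeR adjusted p = 8.9e-28) for the sense gene. The difference of the 2 was 0.07 (95% interval -0.51 to 0.65).

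Other pairs fell on both strands too. ALDH1A3-AS1 had 16 and 10 counts in FOXD2 libraries and 33 and 37 in empty vector libraries, a log2 fold change of -1.48 against -1.56 for ALDH1A3, an enzyme of retinoic acid synthesis. ID2-AS1 had 10 and 13 counts in FOXD2 libraries and 23 and 21 in empty vector libraries (-0.98), beside -1.59 for ID2, an inhibitor of basic helix-loop-helix factors. Without any one of the 4 libraries ID2-AS1 lost its call (edgeR adjusted p 0.0837 to 0.263). PRKCQ-AS1, head to head with the gene of protein kinase C theta, fell by 0.74 and PRKCQ by 1.89, and PRKCQ-AS1 lost its call without empty vector library 1 (edgeR adjusted p 0.388) and without FOXD2 library 1 (0.217). MSRB3-AS1, opposite a methionine sulfoxide reductase gene, met the minimum in empty vector libraries alone. It had 3 and 5 counts in FOXD2 libraries and 12 and 37 in empty vector libraries (-2.62, against -1.46 for MSRB3). The selection favours that order.

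OIP5-AS1 and SBF2-AS1 fell without a called change of the sense gene. OIP5-AS1 (ENSG00000247556, chr15:41283990-41309737, plus strand) is also called Cyrano and binds the microRNA miR-7. It had 917 and 1054 counts in FOXD2 libraries and 1637 and 1703 in empty vector libraries (log2 fold change -0.81, SE 0.08, edgeR adjusted p = 7.4e-12). OIP5, a centromere protein, had a log2 fold change of -0.26 (edgeR adjusted p = 0.091). SBF2-AS1 had 63 and 56 counts in FOXD2 libraries and 98 and 123 in empty vector libraries (-0.94, SE 0.20), while SBF2, a phosphatase-like regulator of membrane traffic, was at 0.17 and not called. THAP9-AS1 had 608 and 579 counts in FOXD2 libraries and 881 and 961 in empty vector libraries (-0.69, SE 0.08, edgeR adjusted p = 2.8e-10), beside -0.58 for THAP9, a gene derived from a DNA transposase. The call of THAP9 itself was lost without empty vector library 1 (edgeR adjusted p 0.0807) and without FOXD2 library 1 (0.101).

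GLIPR1-AS1 fell by 1.25, KTN1-AS1 by 0.80 and SLC16A1-AS1 by 0.76. KTN1, a kinesin-binding membrane protein, and SLC16A1, a lactate transporter, fell with them (-0.65 and -0.43), and GLIPR1 was not tested. The calls of KTN1-AS1 and SLC16A1-AS1 ended when 1 library was left out, with the edgeR adjusted p in parentheses: KTN1-AS1 without empty vector library 1 (0.0623) or FOXD2 library 1 (0.0858), SLC16A1-AS1 without empty vector library 2 (0.417), FOXD2 library 1 (0.0524) or FOXD2 library 2 (0.128). ID2-AS1, PRKCQ-AS1, KTN1-AS1, SLC16A1-AS1 and the sense gene THAP9 were called neither with DESeq2 nor with limma on TPM.

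The rule named 6 RNAs that met the minimum in empty vector libraries alone, a selection that favours lower counts in FOXD2 libraries. KLRK1-AS1, which spans the gene of the lymphocyte receptor NKG2D, had 2 and 6 counts in FOXD2 libraries and 15 and 22 in empty vector libraries, and KLRK1 had 3 and 5 against 15 and 19. MBNL1-AS1 had a fitted log2 change of -1.35, and MBNL1, a splicing regulator, fell by 0.93. CCDC28A-AS1 (-1.29) and ATP2A1-AS1 (-1.18) stood beside sense genes that were not called. MSRB3-AS1 is given above and RHPN1-AS1 below.

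Antisense and sense genes were then compared as pairs. In 225 pairs both genes passed the filter. Both were called in 43 of them, with 19 pairs higher on both strands, 12 lower on both, 9 with the antisense RNA higher and the sense gene lower, and 3 the other way. In the remaining 182, one gene or neither was called. Where the antisense RNA met the minimum in both groups, 10 pairs were higher on both strands and 8 lower on both. In 7 of those pairs the antisense RNA was higher and the sense gene lower, and in 1 it was the other way. In the rest of the called pairs the selection favours the antisense direction. For each pair the log2 ratio of antisense to sense CPM was compared between groups. The 95% interval lay above 0 in 49 pairs and below 0 in 19, and covered 0 in 157. Among the 166 pairs whose antisense RNA met the minimum in both groups, it lay above 0 in 33, below 0 in 14 and covered 0 in 119. Over all 373 same-named pairs, including those outside the selection, 22.5% lay above 0 and 8.85% below 0. Leaving out 1 library gave 31 to 50 pairs above 0 and 13 to 22 below.

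Across the 225 pairs, Pearson's r between the antisense and the sense log2 fold change was 0.326 (Spearman correlation 0.296), and it was 0.189 (0.231) over the 166 pairs that met the minimum in both groups. The FOXD2 pair, whose sense gene was delivered, is among the 166. Without it, an exclusion chosen after seeing the data, r was 0.375 (0.25). The points share 4 libraries, so r describes them only. Among the 166, r was 0.541 (0.375) over the 83 pairs overlapping at the sense 5′ end and 0.552 (0.412) over the 13 that span the gene. It was 0.196 (-0.075) over the 34 at the 3′ end and 0.0466 (0.118) over the 21 inside. Over the 13 head-to-head pairs it was -0.17 (0.0604), and 0.41 (0.266) over 12 without the FOXD2 pair. The difference between these values was not tested.

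**Figure D2:**
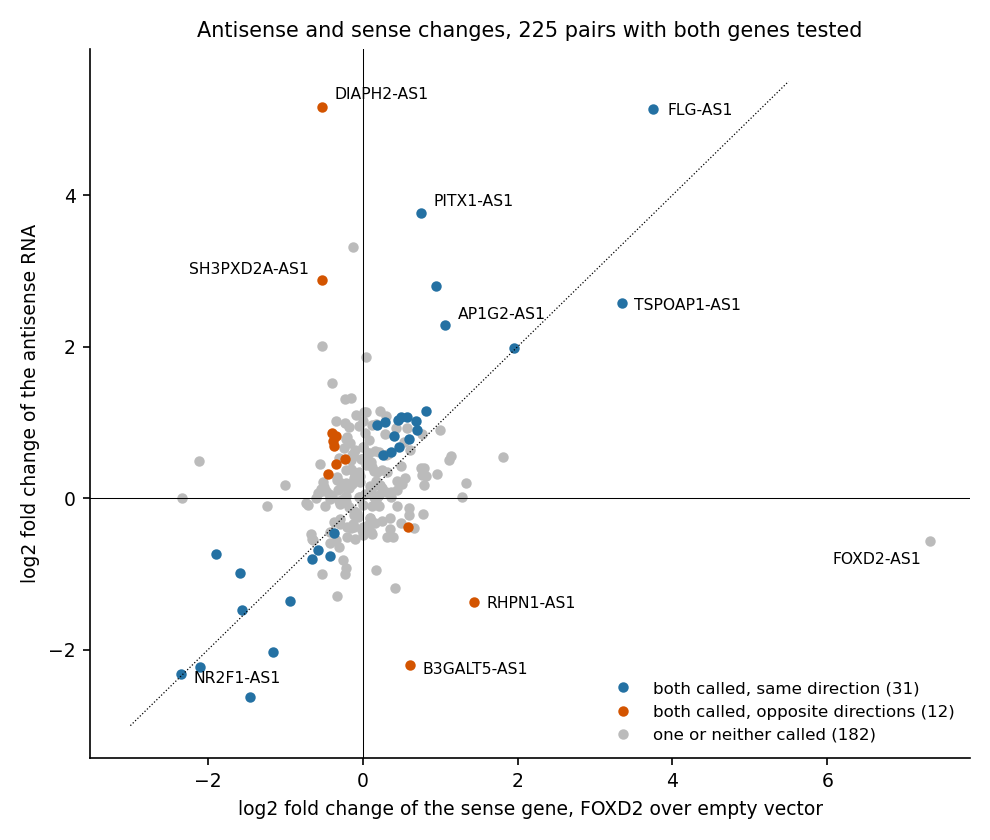
Log2 fold change, FOXD2 over empty vector, of the antisense RNA (vertical axis) against that of its sense gene (horizontal axis) for 225 pairs; the dotted line marks equal change. The 31 pairs called in the same direction (blue) run from NR2F1-AS1 at the lower left to FLG-AS1 at the top, 12 pairs were called in opposite directions (orange), and FOXD2-AS1 stands far right, its sense gene being the one delivered.

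Of the 12 opposite pairs, 11 are described here. Their calls depended on the tool. With limma on TPM the sense call was lost in 10 of the 11, all but RHPN1, and the antisense call in 5. With DESeq2 the sense call was lost in 2 and the antisense call in 6. SH3PXD2A-AS1 and DIAPH2-AS1 had the widest gaps. DIAPH2-AS1 (ENSG00000236256, X chromosome, minus strand) met the minimum in FOXD2 libraries alone. It had 19 and 27 counts in FOXD2 libraries, against 0 and 1 in empty vector libraries, a count ratio of 44.3. DIAPH2, a formin that nucleates actin filaments, had 214 and 218 counts in FOXD2 libraries and 268 and 334 in empty vector libraries (log2 fold change -0.53, SE 0.12), a call lost with limma on TPM (limma adjusted p = 0.174).

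FBXL19-AS1 starts 214 bases from FBXL19, an F-box protein that binds CpG islands, in GENCODE release 29, and 420 bases from it in RefSeq. It had 127 and 124 counts in FOXD2 libraries and 76 and 73 in empty vector libraries, while FBXL19 had 919 and 758 in FOXD2 libraries and 1009 and 1077 in empty vector libraries. The log2 fold changes were 0.70 and -0.37, and the call of FBXL19 was lost with limma on TPM (limma adjusted p = 0.0647).

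PSMA3-AS1 lies across the 3′ end of PSMA3, a proteasome subunit, and had 416 and 352 counts in FOXD2 libraries and 235 and 305 in empty vector libraries (log2 fold change 0.45, against -0.34 for PSMA3). Its call was lost without empty vector library 1 (edgeR adjusted p 0.0605, as are the values in parentheses that follow). NOP14-AS1, opposite a ribosome assembly factor, changed by 0.51 against -0.23 for NOP14, and lost its call without FOXD2 library 1 (0.13). ELF3-AS1, opposite an epithelial ETS factor, changed by 0.76 against -0.38 for ELF3, and SVIL-AS1, opposite an actin-binding protein, by 0.32 against -0.45 for SVIL. Both of these RNAs lost their call without empty vector library 1, empty vector library 2 or FOXD2 library 2 (ELF3-AS1 0.0803, 0.0752 and 0.182, SVIL-AS1 0.0662, 0.316 and 0.365). CCDC18-AS1 changed by 0.82 against -0.35 for CCDC18. The sense fall of CCDC18 was lost without empty vector library 2 (0.128) or FOXD2 library 2 (0.0657), and its sign turned to 0.23 with limma on TPM.

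In 3 pairs the antisense RNA was lower and the sense gene higher. RHPN1-AS1 (ENSG00000254389, chromosome 8, minus strand) starts 339 bases from RHPN1 and is transcribed away from it. RHPN1-AS1 had 11 and 7 counts in FOXD2 libraries and 23 and 22 in empty vector libraries (fitted log2 change -1.37). It met the minimum in empty vector libraries alone, and its call was lost with DESeq2 (DESeq2 adjusted p 0.12). The call was also lost without empty vector library 1 (log2 change -1.29) or FOXD2 library 2 (-1.12). RHPN1 had 613 and 680 counts in FOXD2 libraries and 216 and 245 in empty vector libraries (1.44, SE 0.11). B3GALT5-AS1, likewise through empty vector libraries alone, had 3 and 4 counts in FOXD2 libraries and 13 and 19 in empty vector libraries. Its call was lost with DESeq2 (DESeq2 adjusted p 0.0548) and with limma on TPM (limma adjusted p 0.112). Without empty vector library 2 the call was lost too (log2 change -1.97). B3GALT5, a galactosyltransferase, had 95 and 85 counts in FOXD2 libraries and 54 and 59 in empty vector libraries. The call of B3GALT5 was lost without either empty vector library or without FOXD2 library 1 (edgeR adjusted p 0.0675 to 0.0725). AGAP2-AS1, inside a gene of a GTPase-activating protein, changed by -0.38 against 0.58 for AGAP2, and lost its call without empty vector library 2 (edgeR adjusted p 0.367) or FOXD2 library 1 (0.162).

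**Figure D3:**
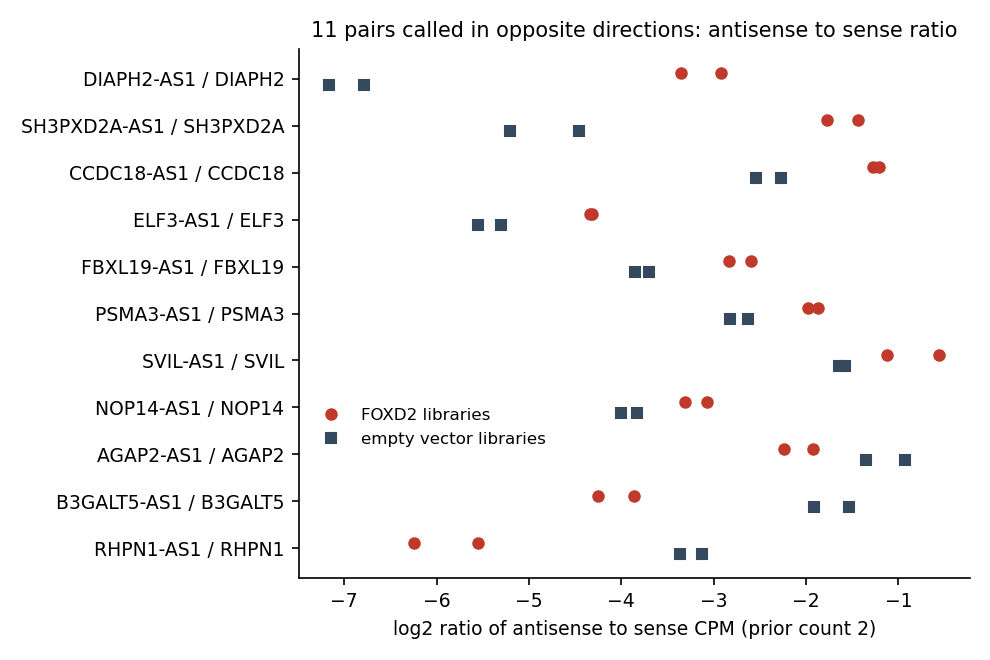
Log2 ratio of antisense to sense CPM (prior count 2) in each library for 11 of the 12 pairs called in opposite directions, with FOXD2 libraries as red circles above empty vector libraries as dark squares. The ratio was higher in both FOXD2 libraries for the upper 8 pairs and lower in both for the lower 3, which follows from how these pairs were chosen.

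By position, the antisense RNAs called higher made up 16 of 59 at the sense 3′ end, 22 of 115 at the 5′ end, 7 of 37 inside the sense gene, 7 of 32 that span it and 2 of 17 head to head. Those called lower were 5, 10, 5, 2 and 2 in the same order. Their sense genes had 12, 28, 9, 5 and 5 higher and 13, 34, 7, 4 and 6 lower, of 49, 113, 30, 17 and 16 tested. Over all genes tested, 27.2% were higher and 26.4% lower, and the antisense share higher at the 3′ end, 27.1%, was close to that. These classes include antisense RNAs that met the minimum in 1 group alone, whose direction the selection favours.

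**Figure D4:**
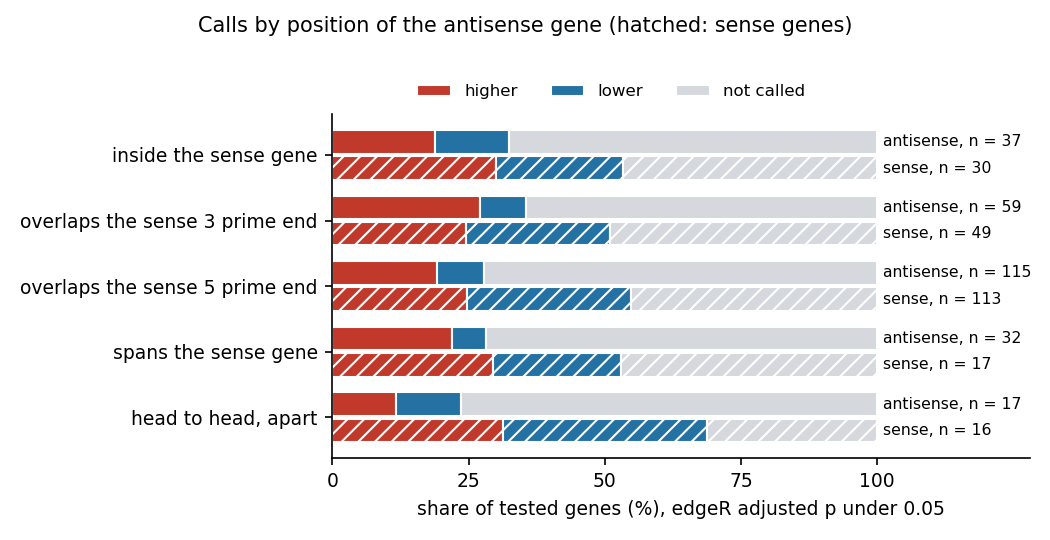
Share of tested genes (%) called higher, lower or not called at an edgeR adjusted p under 0.05, for antisense RNAs (plain bars) above their sense genes (hatched bars), by position of the antisense gene. Antisense RNAs have more higher than lower calls in 4 of the 5 classes, with 2 and 2 head to head, and a larger share not called than their sense genes in all 5.

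FOXD2-AS1 (ENSG00000237424, chr1:47432133-47434641, minus strand) is transcribed away from FOXD2, with starts 1376 bases apart in GENCODE release 29 and 3401 bases apart in RefSeq, and has been studied in several carcinomas. It had 45 and 48 counts in FOXD2 libraries and 70 and 62 in empty vector libraries. Both FOXD2 libraries were lower, but the change missed the threshold (log2 fold change -0.56, SE 0.25, edgeR adjusted p = 0.058). Over all settings it ran from -0.70 to -0.42 with adjusted p between 0.0535 and 0.301.

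Of 17 antisense RNAs listed as characterised, 5 passed the test, 2 higher and 3 lower, against 27.2% and 26.4% of all genes. Of these, OIP5-AS1, SBF2-AS1, THAP9-AS1 and PSMA3-AS1 are given above. FGD5-AS1 had 1428 and 1433 counts in FOXD2 libraries and 1418 and 1499 in empty vector libraries (log2 fold change -0.08, SE 0.07), with FGD5 at 0 to 4 counts. CDKN2B-AS1, known as ANRIL, had 33 and 34 counts in FOXD2 libraries and 28 and 36 in empty vector libraries (0.01, SE 0.32). CDKN2B, a cell-cycle inhibitor, had 181 and 178 counts in FOXD2 libraries and 77 and 65 in empty vector libraries (1.28, SE 0.17). The antisense change minus the sense change was -1.24 on the log2 scale (95% interval -1.90 to -0.59). VPS9D1-AS1 likewise had a change of 0.20 that was not called, beside 1.33 for VPS9D1 (difference -1.10, 95% interval -1.69 to -0.51).

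TMPO-AS1 had 62 and 66 counts in FOXD2 libraries and 78 and 94 in empty vector libraries (-0.48, edgeR adjusted p = 0.055), and TMPO, a lamina-associated protein, fell by 0.67. ZEB1-AS1 (0.59, edgeR adjusted p = 0.059), ZNF561-AS1 (0.62), MCM3AP-AS1 (0.51), TTN-AS1 (0.24), LOXL1-AS1 (0.19), FOXP4-AS1 (0.16), SNAI3-AS1 (0.13) and PCBP1-AS1 (0.04) were not called. EPB41L4A-AS1 was called, with 514 and 421 counts in FOXD2 libraries and 246 and 276 in empty vector libraries (0.78, SE 0.11, edgeR adjusted p = 1.6e-08), and EPB41L4A, a band 4.1 family gene it lies inside, changed by 0.60. With limma on TPM EPB41L4A-AS1 was not called (0.33, limma adjusted p = 0.11). The call of EPB41L4A was lost without empty vector library 2 (edgeR adjusted p 0.0844) or FOXD2 library 1 (0.152).

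Other genes of the pathway were those of the machinery that limits antisense RNAs. Of 20 genes of the nuclear exosome and its targeting complexes, 0 were higher and 9 lower, with a median log2 fold change of -0.18, against 27.2% higher, 26.4% lower and a median of 0.01 over all genes. The core subunits EXOSC3 and EXOSC7 fell by 0.71 and 0.70, and the helicase MTREX, which feeds RNA to the exosome, fell by 0.48. EXOSC3 had 32.2 and 30.8 CPM in FOXD2 libraries and 51.4 and 52.1 CPM in empty vector libraries. The catalytic subunits divided, with DIS3 lower (-0.27) and EXOSC10 not called (0.07).

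Of 26 genes of Integrator, cleavage and early termination, 0 were higher and 13 lower, with a median of -0.19, to be read against the same shares over all genes. INTS14 fell by 0.55 and the cleavage endonuclease CPSF3 by 0.54, while INTS11, the endonuclease of Integrator, was not called (-0.14). With limma on TPM, 2 of the 26 and 6 of the 20 exosome genes were lower. Of 15 genes that bind or edit double-stranded RNA, 3 were higher and 5 lower, and 1 and 3 with limma on TPM, against 27.2% and 26.4% of all genes. IFIH1, a cytoplasmic sensor of double-stranded RNA, rose by 1.34, with 291 and 336 counts in FOXD2 libraries and 126 and 112 in empty vector libraries. ILF2 fell by 0.52 and the helicase DHX9 by 0.50, and the editing enzyme ADAR was not called (0.00). Whether these genes have a part in the antisense levels was not tested. In bulk RNA, fewer cells with a transcript and less of it per cell cannot be told apart.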

How the data were processed

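RNA was measured in 2 FOXD2 and 2 empty vector libraries of HCT116 cells. The submitters' processing notes name STAR 2.7.2b, RSEM 1.2.31 and GRCh38; the annotation release and strand setting are not given in the sources used here. Per the file headers, the deposited tables hold an expected count per gene, TPM and a posterior SD of the count, the last read here as a score of how reads were shared. Members, lists, tests and the rule for naming genes were chosen with earlier results of these data known, and those results are no independent support.

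Expected counts were rounded to whole numbers and tested with the quasi-likelihood test of edgeR 4.0.16 (R 4.3.3; TMM, filterByExpr, robust, two-sided) over 14470 genes, with Benjamini-Hochberg adjustment over all of them at 0.05. CPM uses TMM-scaled library sizes, and SE is the fold change divided by the square root of F. Log2 antisense to sense ratios (prior count 2) were compared with limma 3.58.1 over 373 pairs. Alternatives used DESeq2 1.42.0, limma on log2 of the authors' deposited TPM plus 0.5, limma-voom, other filters, and each library left out. The fit was tested on simulated counts.

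Named were FOXD2-AS1, the 10 largest rises and falls among members with the minimum in both groups, 6 members by count in each single-group class, the 6 with the highest TPM and a list of characterised RNAs; other names were chosen after their values were seen. Symbols matched 60370 of 60683 identifiers. Same-numbered libraries did not deviate together (correlation -0.0989), so the numbers were not treated as pairs. A count of 0 allows 3 counts, or 0.193 to 0.211 CPM, for counting error only. The chi-square per degree of freedom was 3.91 between FOXD2 libraries and 2.52 between empty vector libraries, above sampling noise. Values of 1 pair called in opposite directions are not reported here.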

Additional observations from a re-analysis of the deposited data

How the results depend on the processing

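Low counts limit these results: the median member had 23 to 34 counts per library. Of the 80 calls, 29 held under every alternative setting that tested them. Among the 55 with the minimum met in both groups, it was 19. The share of calls kept was not taken over all genes. DESeq2 called 27 members higher and 9 lower, and 17 and 7 of those with the minimum in both groups. Over all genes it called 2707 higher and 2916 lower. Without 1 library the members gave 36 to 45 higher and 15 to 18 lower, those with the minimum in both groups 24 to 32 and 8 to 13, and the pair intervals 31 to 50 above 0 and 13 to 22 below. The calls over all genes also fell in both directions whichever library was left out, each such fit having 1 library left in a group. With limma on TPM, all genes gave 2369 higher and 1482 lower, against 3929 and 3816. The members then gave 43 and 17 and the sense genes 31 and 24. With a count minimum of 20 the sense genes gave 38 lower. CCDC18 turned to 0.23 with limma on TPM, and no other named or called gene changed sign against a call. With the replicate block, members gave 49 higher and 20 lower, sense genes 56 and 59, all genes 3680 and 3494, and pairs 48 above 0 and 19 below; same-numbered libraries shared only a number. The causes of these shifts were not tested. Over the settings of 95 antisense RNAs, named or called, 819 values kept their side of the threshold, 216 lost it and 2 gained it. For 83 of their sense genes it was 844, 60 and 7, and 1 reversed. Scaling moved the median of all genes by less than 0.1 on the log2 scale in every setting.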
